A study of Mus musculus with 12 samples.

Results

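T cells that carried the photoconverted (red) form of the Kaede protein were compared with unconverted (green) T cells from MC38 tumours. The tumours were of the groups labelled day 3 that were treated with radiation, FTY720 or both. MC38 is a mouse colon carcinoma line, grown here in mice heterozygous for Kaede, a fluorescent protein that violet light turns from green to red. Cells of 2 of the 4 10x Genomics wells were taken, those that hold the treated day 3 tumours, and each was called red or green by its top hashtag, the barcode of an antibody that marks the sample, with at least 20 hashtag UMIs (unique molecular identifiers, which count captured molecules) and at least 3 times the next hashtag. Cells also needed 500 genes or more and 10% mitochondrial UMIs or less, which left 229 red and 194 green cells, 423 of the 2740 kept in the 4 wells.

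In all groups, violet light on day 14 converted the lymph node that drains the tumour, so red marks cells that were in that node then, and green marks cells that were not converted. Mice labelled FTY720 received 10 µg of it on day 15, tumours labelled RT (radiation) received a single dose of 12 Gy on day 14, and RT+FTY720 mice received both. All were harvested on day 17, which is 72 h after irradiation in the irradiated groups. The label day 3 counts from day 14 in all groups, and not from FTY720. Each condition had 2 replicates of 4 pooled tumours from 4 mice, which gives 6 pools and 12 hashed samples. Cells were enriched with magnetic beads for CD4 and CD8 and sorted as live CD90.2-positive, and the other wells, with 2317 kept cells, held the groups labelled NT day 1, RT day 1 and NT day 3. Samples held 17 to 64 cells and 337319 to 1357863 UMIs, and 0 cell barcodes were shared between any of the wells. The red samples had 22, 56, 24, 64, 23 and 40 cells, and the green ones 17, 47, 29, 42, 28 and 31 cells, in the order of FTY720, RT and RT+FTY720 replicates 1 and 2. Where counts of a sample are summed, fewer cells of a type and less RNA per cell cannot be told apart.

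Naive and memory T cells recirculate between lymph nodes and blood. The chemokine receptor Ccr7 guides them into a node, and the sphingosine-1-phosphate receptor S1pr1 lets them leave it; FTY720 acts on that receptor and holds lymphocytes in lymphoid tissue. In tissue, integrins such as VLA-4, whose alpha chain is encoded by Itga4, bind vessel walls and matrix. T cells of 1 clone share a T cell receptor (TCR), whose beta chain CDR3, the stretch across the V and J segment joint, is used as a tag of common descent.

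The hashtag sequences decide colour and sample, so they are shown first, 5′ to 3′, each 15 bases long, with the condition they marked in both treated wells.
C0301, RT: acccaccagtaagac
C0302, RT: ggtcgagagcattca
C0303, FTY720: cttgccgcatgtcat
C0304, FTY720: aaagcattcttcacg
C0305, RT+FTY720: ctttgtctttgtgag
C0306, RT+FTY720: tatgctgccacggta
In the replicate 1 well the odd tags were named red and the even tags green. In the replicate 2 well the deposited matrix named the odd tags green and the even tags red, while the sample labels kept the odd tags red. Colours here follow the matrices, and exchanging them in replicate 2 removed every call, as given under the processing alternatives.

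TCR sequences were shared more often by hashtag sequence than by replicate number. The 8 beta sequences shared by red and green samples of 1 hashtag sequence, which lie in different wells, were found in 5 of 6 such sample pairs and in 21 cells, at 18.8 shared sequences per 10000 sequence pairs. Of these, 6 shared the alpha chain too. Red and green samples with the same replicate number shared 1 beta sequence, in 1 of 6 pairs, at 1.88 per 10000. In the other wells the same comparison gave 69 shared beta sequences by hashtag, in 6 of 6 pairs, and 9 by replicate number, in 5 of 6 pairs. Among 48 pairs of treated samples of different conditions, 3 beta sequences were shared, all with the alpha chain, and all between the red FTY720 replicate 2 sample and the red RT+FTY720 replicate 1 sample. These 3 sequences took up 14 cells, and the labels give these samples as pools of different mice. What these patterns reflect was not tested. Deviations of same-numbered red and green samples from their group means correlated across genes at 0.017 in FTY720, -0.113 in RT and -0.096 in RT+FTY720. Whether red and green samples of 1 replicate number come from the same mice was not tested, and a paired value may join different mice; results that follow pair red and green by replicate number, with the value for pairs by hashtag sequence, chosen after the data were seen, beside those it changes.

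**Figure D1:**
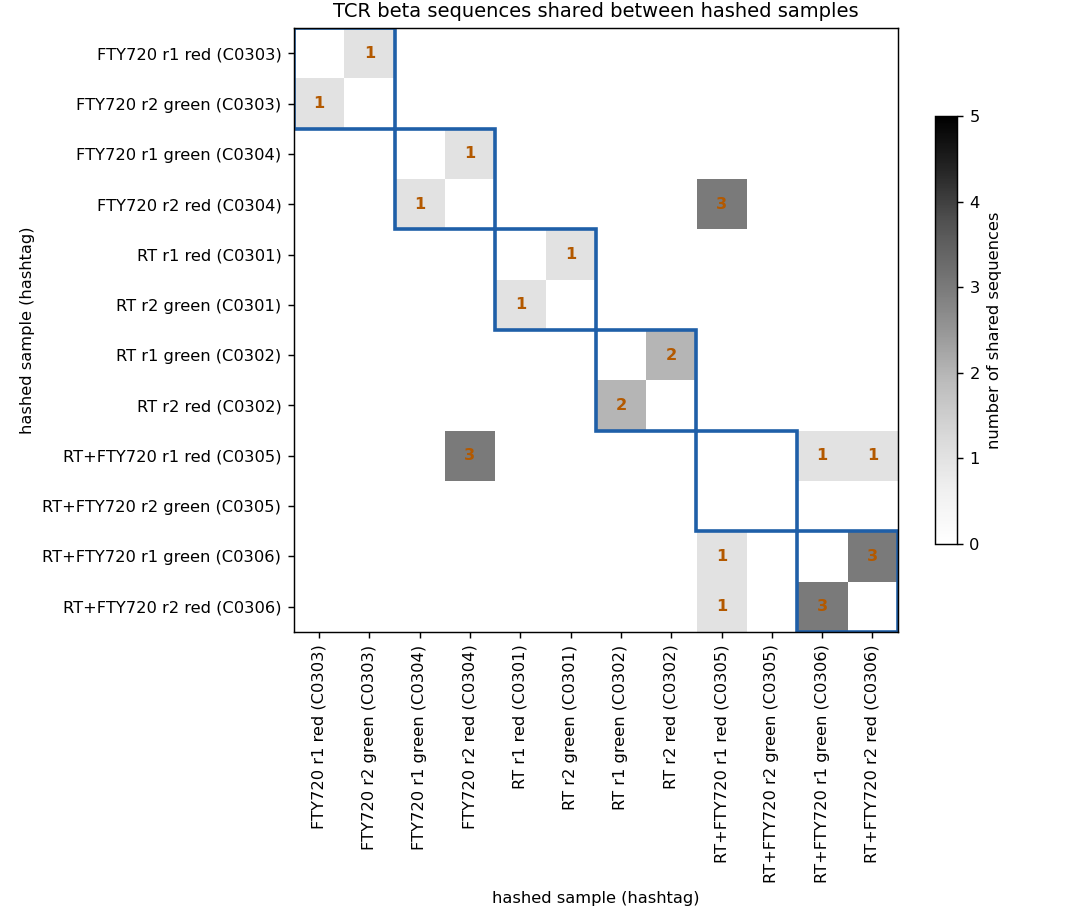
Number of TCR beta sequences shared by each pair of the 12 hashed samples, ordered by condition and hashtag, with r1 and r2 for replicates 1 and 2. Blue boxes enclose red and green samples of 1 hashtag; 5 of the 6 boxes hold shared sequences, and the 3 sequences shared between conditions lie between FTY720 replicate 2 red and RT+FTY720 replicate 1 red.

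The CDR3 beta sequences of the clones that carry this pattern follow, because they show which samples share a sequence. They run 5′ to 3′, and each was read in the cells named after it.
TRBV31 TRBJ2-5: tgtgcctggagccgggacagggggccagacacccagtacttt
TRBV13-1 TRBJ1-6: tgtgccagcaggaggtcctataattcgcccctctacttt
TRBV1 TRBJ2-5: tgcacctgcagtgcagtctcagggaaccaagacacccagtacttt
The TRBV31 sequence was held by 9 CD8-like cells, 3 in FTY720 replicate 2 red and 6 in RT+FTY720 replicate 1 red. The TRBV13-1 sequence was held by 7 CD8-like cells, of which 5 were RT+FTY720 replicate 2 red, 1 was replicate 1 red and 1 was replicate 1 green. The TRBV1 sequence was held by 2 FTY720 replicate 1 red cells and by 1 FTY720 replicate 2 green cell, which carry the same hashtag.

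Of the sequences found in more than 1 sample, 3 joined TRBV26 to TRBJ1-6 at the same length of 45 bases. The capitals mark the 6 positions at which they differ from one another.
TRBV26 a: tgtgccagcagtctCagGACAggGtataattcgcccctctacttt
TRBV26 b: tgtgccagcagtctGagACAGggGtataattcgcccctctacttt
TRBV26 c: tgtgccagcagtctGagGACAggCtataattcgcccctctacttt
Sequences a and c were each in FTY720 replicate 2 red and in RT+FTY720 replicate 1 red, as the TRBV31 sequence was. They encode the same CDR3 amino acids in the deposited table, and b encodes others. Sequence b was in 1 RT replicate 1 red and 1 RT replicate 2 green cell, again of the same hashtag. The treated wells held 7 sequences of this V, J and length, in 11 cells of 7 samples, all CD8-like, among 324 beta sequences. The other wells held 8, in 15 cells, all CD8-like, among 1683. These were singled out after their sequences were seen.

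Red cells were found in green clones of the same pair at a mean of 6.80% of red cells with a beta chain when pairs followed the hashtag. The mean was 0% for green cells of other pairs, taken only from the well of the pair's green sample. The value was higher within the pair in 5 of 6 pairs (two-sided exact sign-flip permutation p = 0.0625). The shares within a pair were 10% and 1.92% in FTY720 (C0303 and C0304), 5.26% and 3.64% in RT (C0301 and C0302), and 0% and 20% in RT+FTY720 (C0305 and C0306). Other pairs leave out the green sample of the same condition in the other well. By replicate number that is the green sample of the same hashtag, which shared sequences in 5 of 6 pairs. By hashtag it includes RT+FTY720 replicate 1 green, which shared 1 sequence with replicate 1 red. In both pairings the value for other pairs, so limited, was 0% throughout, so no difference could be negative. The p-value then depends only on how many pairs share a sequence, and it cannot decide whether sharing follows the pair. Pairing by hashtag was also chosen after the data were seen. By replicate number the mean was 0.877% against 0%, from 1 of 6 pairs (exact permutation p = 1). Clonal repetition, the share of cell pairs in a sample with the same beta sequence, averaged 2.33% in red and 1.01% in green samples, a difference of 1.32 percentage points (exact permutation p = 0.469). RT+FTY720 replicate 1 red, at 8.77%, was the highest sample, and without one pool at a time the difference ran between 0.00141 and 1.70 points.

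Cells were named from clusters of all 4 wells by marker genes. Defining genes of other cell types were low: the myeloid markers S100a8 and S100a9 and the B cell markers Ms4a1, Pax5 and Jchain had 0 UMIs in the treated wells. The 15 myeloid genes summed to 65.4 to 191.8 CPM (counts scaled to the library's total) in red and 49.3 to 557.3 CPM in green samples, and the 9 B cell and plasma cell genes to 47.4 to 161.1 CPM in red and 8.80 to 86.0 CPM in green ones. The 6 gamma-delta T cell and innate lymphoid genes summed to 42.8 to 133 CPM in red and 50.4 to 191.3 CPM in green samples, of which Gata3, also a T cell gene, gave 94.2% of UMIs, and Il17a and Trdv4 were at 0. The 9 stroma and tumour genes summed to 58.9 to 92.7 CPM in red and 50.4 to 89.7 CPM in green samples, with 5 of them at 0. Their part in the differences was not tested.

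CD4 conventional-like cells were a smaller share of red than of green cells in 6 of 6 pairs, and Treg-like cells, the regulatory T cells marked by Foxp3, a larger share in 4 of 6 pairs. Neither passed adjustment over the 6 classes. CD4 conventional-like shares were 4.55%, 5.36%, 12.5%, 15.6%, 13.04% and 12.5% in red samples, and 11.8%, 21.3%, 27.6%, 35.7%, 25.0% and 12.9% in green samples, in the order given above. The means were 10.6 ± 4.5% in red and 22.4 ± 9.1% in green (SD, n = 6 pools), and the ranges overlap. The two-sided exact sign-flip permutation p was 0.03125, the smallest that 6 pairs can give, and 0.1875 after adjustment. Of the 25 red cells of this class, 18 lay in cluster 4 and 1 in cluster 13, and of the 46 green cells 22 lay in cluster 4 and 5 in cluster 13, with the rest in clusters split by lineage. The share of cluster 4 alone was higher in red in 3 of 6 pairs.

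Treg-like shares were 18.2%, 26.8%, 20.8%, 28.1%, 30.4% and 22.5% in red and 23.5%, 17.0%, 24.1%, 7.14%, 10.7% and 12.9% in green samples, a mean of 24.5 ± 4.7% in red and 15.9 ± 6.9% in green (SD, n = 6; exact permutation p = 0.125, adjusted 0.375). The pools in which red was lower were FTY720 and RT replicate 1. With pairs by hashtag the Treg-like adjusted p was 0.1875 (exact permutation). When cells were classed by their own UMIs of Cd4, Cd8a, Cd8b1 and Foxp3 in place of clusters, the red minus green difference was 9.42 points for Treg-like cells and -9.46 points for CD4 conventional-like cells, both with an adjusted p of 0.0469 (exact permutation). That adjustment ran over the Treg-like, CD4 conventional-like and CD8-like classes alone and not over 6 classes. It is therefore not comparable with the adjusted values by cluster. Red Treg-like cells lay in cluster 3, led by genes including Areg and Il1rl1 (30 cells), cluster 5 (20) and cluster 11 (8), and green ones in clusters 3 (9) and 5 (20).

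The CD8-like share was 51.9 ± 10.3% in red and 56.0 ± 11.2% in green samples (SD, n = 6; exact permutation p = 0.469, adjusted 0.5). Classed by their own UMIs, CD8-like cells had a red minus green difference of the other sign, 1.81 points (adjusted exact permutation p = 0.719). Cluster 2, led by NK receptor genes of the Klra family and left unnamed, is outside the CD8-like class although 96.8% of its cells with a lineage call over the 4 wells were CD8 by UMIs, and held 21 red and 7 green cells. It took 9.44 ± 12.5% of red and 3.55 ± 2.35% of green cells (adjusted exact permutation p = 0.469), with 31.8% and 16.1% in the 2 red FTY720 samples. Naive-like cells were few, 4 CD8 and 5 CD4 in red and 2 of each in green.

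**Figure D2:**
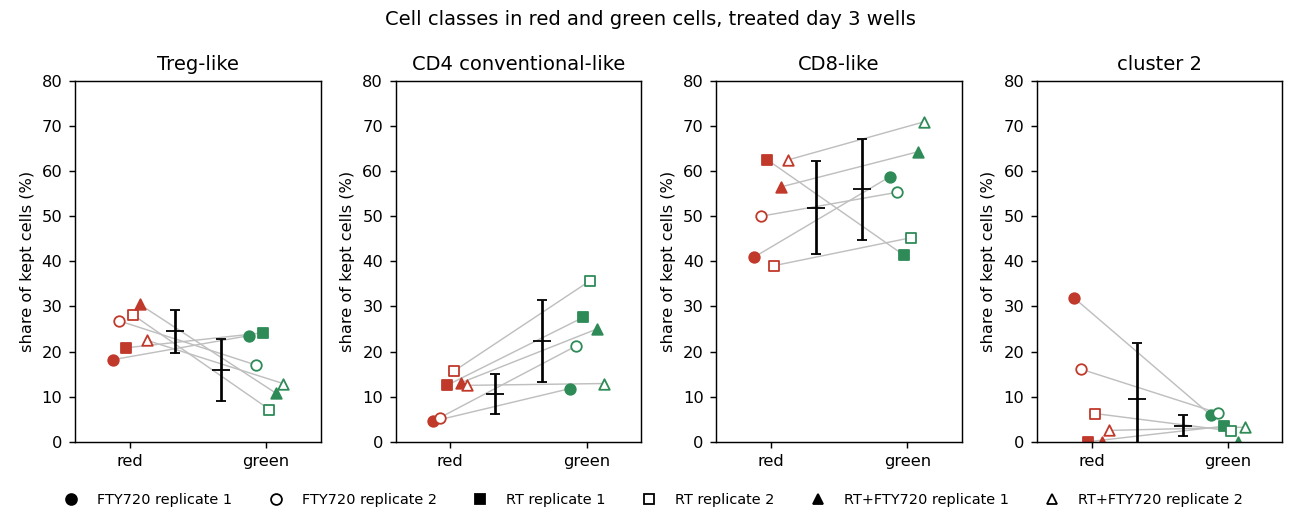
Share of kept cells in each of 4 cell classes, in percent, for red (left) and green (right) samples; each symbol is 1 hashed sample, grey lines join samples of 1 condition and replicate number, and black bars give the mean ± SD of 6 samples. CD4 conventional-like cells are lower in red in 6 of 6 pairs, and Treg-like cells higher in 4 of 6.

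Over all T cells, 9 of 7275 tested genes were higher in red cells (0.124% of genes tested) and 11 were lower (0.151%), at an adjusted p under 0.05 in edgeR's quasi-likelihood test on summed counts with the pool as a block. With no block 0 genes were called, and 950 had an unadjusted p under 0.05 (edgeR). With pairs by hashtag the counts were 26 higher (0.357%) and 24 lower (0.330%), and 14 of the 20 genes were called in both, 6 higher and 8 lower, which is 70% of the first list and 28% of the second. At an unadjusted p under 0.05, 590 genes (8.11%) were higher and 529 (7.27%) lower; with pairs by hashtag the shares were 9.55% and 8.41%. Of the 20 adjusted p-values, 11 were 0.0493, just inside the threshold. The median UMIs per cell ran from 15918 to 25534 in red and from 13896 to 19574 in green samples (mean 20484 ± 4020 in red and 16019 ± 1997 in green, SD, n = 6; exact permutation p = 0.0938, higher in red in 5 of 6 pairs, and p = 0.03125 with pairs by hashtag). Its part in the gene differences was not tested. Without FTY720 replicate 2 and RT+FTY720 replicate 1, the pools whose red samples share TCRs, 0 genes were called and 1023 had an unadjusted p under 0.05, with log2 fold changes of -1.46 for Lilrb4a (adjusted p = 0.0867) and -1.78 for Itga4 (0.106, all edgeR).

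Of 15 tested genes of the naive state and lymph node homing, 2 were called higher and 0 lower, 5 were higher at an unadjusted p under 0.05, and the median log2 fold change was 0.27, against -0.0029 over all genes tested. Dapl1, used here as a marker of naive CD8 cells, was called higher, at 0, 47.6 and 145.3 CPM (lowest, median and highest) in red and 0, 11.8 and 26.5 CPM in green samples (log2 fold change 2.05 ± 0.36, SE; adjusted p = 0.0493, edgeR; 0.058 with pairs by hashtag). It was higher in the 4 FTY720 and RT pools and at 0 in both red RT+FTY720 samples. Cluster 10, whose leading genes include Dapl1 and Ccr7, held 9 red and 4 green cells, with 0 in every RT+FTY720 sample. Dapl1 did not enter the fit without the cells of clusters 2 and 10, and the part of these cells in its values was not tested. Ccr7 reached 30.5 to 356.5 CPM in red and 7.73 to 244.4 CPM in green samples, higher in 4 of 6 pairs (1.13 ± 0.56, adjusted p = 0.358, edgeR), and Tcf7, a factor of naive and stem-like cells, had a log2 fold change of 0.36 ± 0.27 (adjusted p = 0.553, edgeR). The egress receptor S1pr1 was at 37.7 to 105.1 CPM in red and 30.0 to 138.7 CPM in green samples (0.19 ± 0.32, adjusted p = 0.834, edgeR), and its activator Klf2 had 0.10 ± 0.40 (adjusted p = 0.940, edgeR).

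Hspd1, the mitochondrial chaperone HSP60, was higher in red cells in 6 of 6 pairs, at 156.5, 222.6 and 316.6 CPM in red and 67.3, 98.4 and 190.4 CPM in green samples (log2 fold change 1.07 ± 0.16, adjusted p = 0.0221, edgeR). Without the cells of clusters 2 and 10 it had 0.92 and was not called (adjusted p = 0.0862, edgeR). Cct3, a subunit of the TRiC chaperonin, averaged 149 ± 15.2 CPM in red and 83.5 ± 19.4 CPM in green samples (SD, n = 6), Pdia6, a disulfide isomerase of the endoplasmic reticulum, averaged 109.7 ± 12.3 CPM in red and 59.9 ± 15.2 CPM in green samples, and Ran, the GTPase of nuclear transport, 400.1 ± 71.8 CPM in red and 233.6 ± 59.2 CPM in green samples. Their log2 fold changes were 0.83 ± 0.15, 0.87 ± 0.16 and 0.78 ± 0.14 (adjusted p = 0.0493 each, edgeR). Cct3, Pdia6 and Ran were not called without the cells of clusters 2 and 10 either, where 10 of 19 fitted genes stayed called. Without the cycling cells of cluster 12, 15 of 20 genes stayed called, and Cct3 and Ran were not among them. Red and green samples did not overlap for Cct3 and Pdia6, as for 34 genes (0.467%) higher in red. Of 16 tested heat shock and dissociation genes, 1 was called higher, and 6 were higher at an unadjusted p under 0.05; Hsp90ab1, a cytosolic chaperone, had 0.66 ± 0.15 (adjusted p = 0.077) and was called with pairs by hashtag (adjusted p = 0.0451, both edgeR). The immediate early genes of that list, which tissue digestion can induce, did not pass: Fos had -0.02 and Jun -0.47, both chosen after their values were seen.

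Gm2a, which encodes the activator protein of lysosomal ganglioside breakdown, averaged 145.7 ± 22.6 CPM in red and 74.3 ± 19.7 CPM in green samples without overlap (SD, n = 6; log2 fold change 0.98 ± 0.17, adjusted p = 0.0493, edgeR). Tagap, a GTPase-activating protein of activated T cells, was at 106.6, 123.2 and 191.2 CPM in red and 38.4, 68.5 and 103.8 CPM in green samples, also without overlap (1.04 ± 0.18, adjusted p = 0.0493, edgeR; 0.052 with pairs by hashtag). The TCR segment Trbv13-1, at 1.73 to 305.2 CPM in red samples and 2.96 to 108.6 CPM in green ones, was called too (adjusted p = 0.0493, edgeR) but not with pairs by hashtag. The clone of 7 cells shown above carries it, and it was named after its values were seen.

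Among genes lower in red cells, the largest fall was in Itga4, the alpha-4 integrin. It stood at 19.6, 86.0 and 122.3 CPM in red and 89.95, 270.9 and 408.9 CPM in green samples. Red was lower in 6 of 6 pairs, and only the green RT+FTY720 replicate 1 sample lay within the red range (log2 fold change -1.80 ± 0.25, adjusted p = 0.0121, edgeR). By pool, red Itga4 was 117.7 and 76.9 CPM in FTY720, 122.3 and 95.1 CPM in RT, and 19.6 and 38.9 CPM in RT+FTY720, against green levels of 408.9 and 254.2, 189.6 and 287.5, and 89.95 and 380.1 CPM. Cluster 0, of CD8-like cells and led by Gzmk, Ccl5 and Itga4, held 11 red and 25 green cells and was a smaller share of red cells in 6 of 6 pairs; its part in the Itga4 values was not tested. Of 17 integrin and residency genes tested, 0 were called higher and 1 lower. Itga1, an alpha chain that binds collagen, had -0.87 ± 0.19, lower in 6 of 6 pairs, and was called with pairs by hashtag (adjusted p = 0.0384, edgeR). Itgae, the CD103 chain of tissue-resident cells, had 0.74 ± 0.21, higher in 6 of 6 pairs, without passing (adjusted p = 0.138, edgeR).

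Lilrb4a and Lilrb4b, neighbouring genes of inhibitory receptors with near-identical sequences, fell together in red cells. How reads that match both genes were counted was not checked. Lilrb4a was at 26.2, 54.7 and 108.3 CPM in red and 138.2, 182.2 and 304.1 CPM in green samples, without overlap, as for 30 genes (0.412%) lower in red (log2 fold change -1.69 ± 0.21, adjusted p = 0.0097, edgeR). Lilrb4b was at 25.6, 47.6 and 97.4 CPM in red and 66.7, 196.2 and 274.5 CPM in green samples (-1.58 ± 0.20, adjusted p = 0.0097, edgeR). Both, and Abcb1a, a drug efflux transporter that averaged 63.2 ± 26.2 CPM over red samples and 178.4 ± 78.8 CPM over green samples (SD, n = 6; -1.45 ± 0.19, adjusted p = 0.0098, edgeR), stayed called when any 1 pool was left out. No other of the 20 genes did.

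Bcl2, which protects lymphocytes from apoptosis, was at 119.9, 259.4 and 481.0 CPM in red and 422.1, 630.8 and 991.9 CPM in green samples, lower in red in 6 of 6 pairs (log2 fold change -1.20 ± 0.20, adjusted p = 0.0470, edgeR; 0.066 with pairs by hashtag). Both red FTY720 samples lay within the green range, above RT+FTY720 replicate 1 green. Of the 12 survival and BCL2 family genes tested it was the 1 called. Bcl2l1, which encodes BCL-XL, had 0.34 and the pro-apoptotic Bbc3 -0.92, neither called and both chosen after their values were seen. Fasl, the death ligand of cytotoxic cells, was at 76.1, 103.9 and 195.7 CPM in red and 173.0, 239.6 and 293.2 CPM in green samples (-1.09 ± 0.15, adjusted p = 0.0100, edgeR); only RT+FTY720 replicate 2 red and FTY720 replicate 2 green fall within the other group's range.

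The remaining genes called lower were Ddx60 (-0.98 ± 0.15), an interferon-induced helicase gene, Mndal (-0.67 ± 0.12), an interferon-inducible gene of the Ifi200 family, Mctp2 (-0.76 ± 0.14), Gimap3 (-0.69 ± 0.13), a GTPase gene of lymphocyte survival, and Tab2 (-0.65 ± 0.12), an adaptor of TAK1 signalling. Their adjusted p-values were 0.0181 for Ddx60 and 0.0493 for the other 4 (edgeR). Ddx60 and Mndal were not called with pairs by hashtag (adjusted p = 0.161 and 0.054, edgeR).

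**Figure D3:**
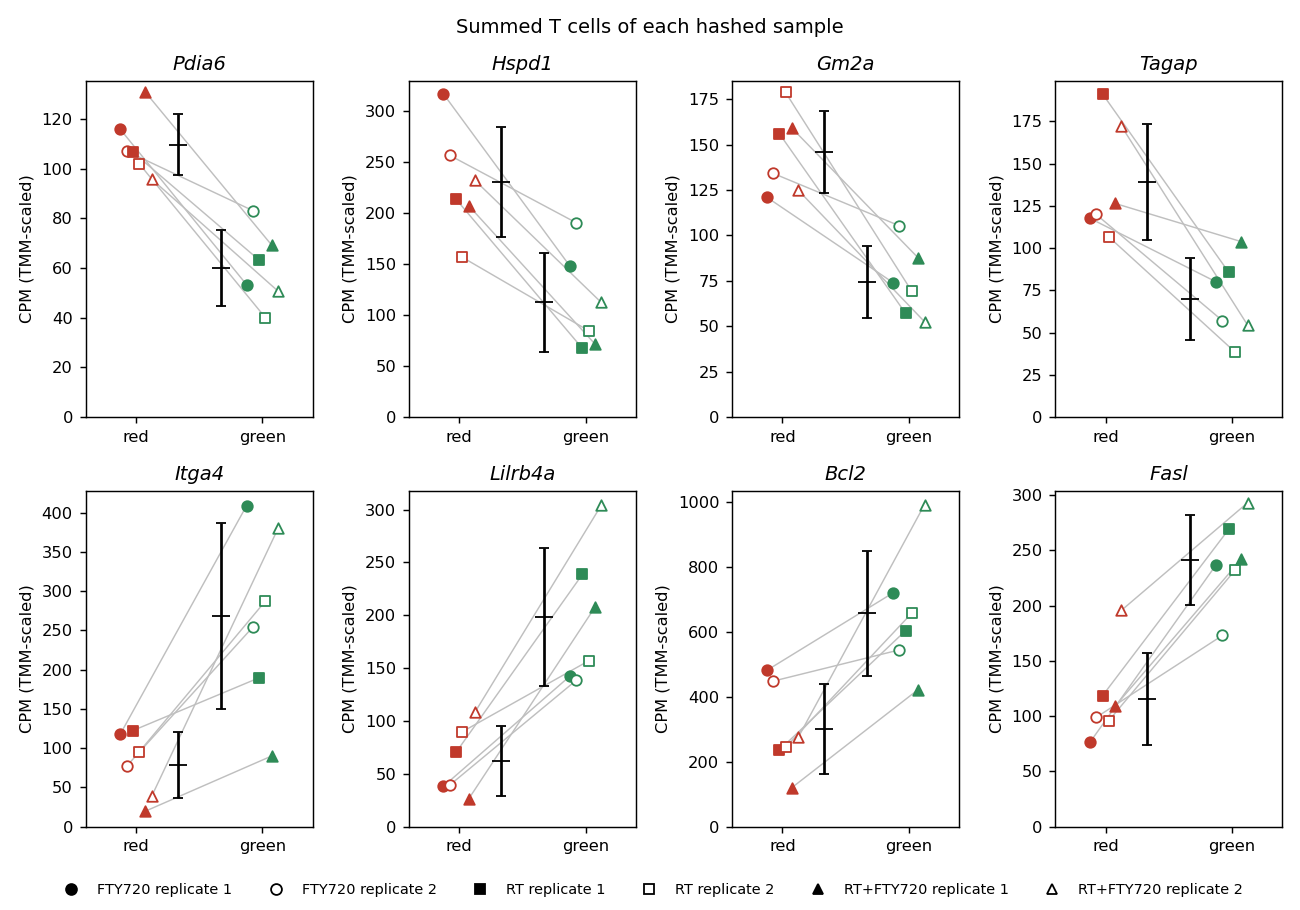
TMM-scaled CPM of 8 genes in the summed T cells of each hashed sample, red left and green right, with grey lines between samples of 1 condition and replicate number and the mean ± SD of 6 samples in black. The upper 4 genes are higher and the lower 4 genes lower in red in 6 of 6 pairs; red and green do not overlap for Pdia6, Gm2a, Tagap and Lilrb4a.

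Among genes called only with pairs by hashtag, Ifng, the cytokine interferon-gamma, was at 346, 738.9 and 2880 CPM in red and 144.8, 298.6 and 821.1 CPM in green samples, higher in 6 of 6 hashtag pairs (log2 fold change 1.30 ± 0.26, adjusted p = 0.0451, edgeR) and in 5 of 6 replicate-number pairs (1.18 ± 0.48, adjusted p = 0.263, edgeR). Ctsz, a lysosomal cathepsin, averaged 117.8 ± 51.4 CPM in red and 42.4 ± 15.8 CPM in green samples (1.41 ± 0.20, adjusted p = 0.011, edgeR). Ifngr1, a receptor chain for interferon-gamma, averaged 617.9 ± 147.5 CPM in red and 988.4 ± 250.8 CPM in green samples (-0.67 ± 0.11, adjusted p = 0.0222, edgeR). Further genes higher by hashtag pairs were the cytokine gene Mif (0.77), Hopx (0.78), the stress gene Gadd45b (1.15), the translation factor Eif5a (0.55) and the nuclear transport partner Ranbp1 (0.79). All but Ifng were named after their values were seen.

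Of the other lists, effector cytokines and chemokines held 1 called gene over all T cells with pairs by replicate number, Fasl, and the rest held 0. Their members' medians are set against -0.0029 for all 7275 genes. Of the 12 tested members of the Treg core list, 9 were higher in red and 0 were lower at an unadjusted p under 0.05, against 8.11% and 7.27% of all genes, and the median was 0.56. Foxp3, the lineage factor of Treg cells, was at 113.3 to 207.1 CPM in red and 23.5 to 161.1 CPM in green samples (1.17 ± 0.33, adjusted p = 0.133, edgeR), and Izumo1r, the folate receptor 4 of Treg cells, had 1.48 ± 0.32 (adjusted p = 0.077, edgeR). Izumo1r was chosen after its values were seen. The Treg-like share, at 24.5% in red and 15.9% in green, moved with this list, and its part in the list's values was not tested. Within CD8-like cells all 9 tested members had a fold change above 0 (median 0.43). Of these, 5 were higher at an unadjusted p under 0.05, against 4.36% of all genes. Within Treg-like cells, with at least 3 cells per sum, 8 of 12 members were above 0 and 4 below (median 0.065). Over all T cells, 3 of 15 tumour effector Treg genes were higher and 0 lower (median 0.40).

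Of 24 interferon-stimulated genes tested, 23 had a fold change below 0, and 13 were lower and 0 higher at an unadjusted p under 0.05 (median -0.44). Stat2, which transmits interferon signals, was lower in 6 of 6 pairs, at 39.8, 85.97, 176.9, 196.4, 128.6 and 177.7 CPM in red and 82.95, 128.6, 328.3, 275.2, 140.7 and 309.5 CPM in green samples in the order given above (-0.64 ± 0.14, adjusted p = 0.077, edgeR). Stat2 was chosen after its values were seen. Cluster 14, whose leading genes include Ifi204, Ifi211 and Ifitm3, held more red than green cells, 39 and 19. Its share was lower in red only in RT replicate 2, and its part in this list's values was not tested. Cluster 7, led by interferon-stimulated genes that also include Ifi204, held 23 red and 50 green cells. Cluster 7 was not a smaller share of red cells in every pair. It held 3 of 23 red and 3 of 28 green cells in RT+FTY720 replicate 1, and 0 cells in both FTY720 replicate 1 samples. Without its cells 0 genes were called over all T cells, and 829 had an unadjusted p under 0.05; the log2 fold changes were then -1.61 for Itga4 (adjusted p = 0.079), -1.37 for Lilrb4a (0.090) and -1.04 for Bcl2 (0.090, all edgeR).

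Of 14 p53 targets, 7 were lower and 1 higher at an unadjusted p under 0.05 (median -0.44). Cluster 15, led by genes including the p53 targets Phlda3, Cdkn1a and Bbc3, held 0 red and 5 green cells, all 5 in RT+FTY720 replicate 2 green (16.1% of that sample), and its part in these values was not tested. Cdkn1a, the cell cycle inhibitor p21, averaged 52.5 ± 14.9 CPM in red and 130.4 ± 95.1 CPM in green samples (-1.06 ± 0.32, adjusted p = 0.161, edgeR). In FTY720 pools it was 38.1 and 32.4 CPM in red and 8.89 and 44.5 CPM in green, in RT pools 59.9 and 69.1 CPM in red and 193.7 and 99.9 CPM in green, and in RT+FTY720 pools 65.4 and 49.97 CPM in red and 256.0 and 179.2 CPM in green. Green exceeded red in the 4 irradiated pools and in 1 of the 2 labelled FTY720 alone. Of 13 cell cycle genes, all had a fold change above 0, and 6 were higher and 0 lower at an unadjusted p under 0.05 (median 0.75); with pairs by hashtag 11 were higher (median 0.98). The cycling cells of cluster 12, 7 red and 2 green, moved with this list, and their part in it was not tested. Mki67, a marker of cycling cells, had 1.92 ± 0.38 (adjusted p = 0.065, edgeR).

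The glycolysis and hypoxia list had 5 of 14 genes higher and 0 lower at an unadjusted p under 0.05 (median 0.41), among them Pkm (0.58, 6 of 6 pairs), chosen after its values were seen. The early TCR response list had 4 of 14 higher and 0 lower (median 0.38). Inhibitory receptors had 4 of 15 higher and 1 lower (median 0.10). Of these, Lag3 was higher in 6 of 6 pairs, at 147.1 to 739.0 CPM in red and 142.2 to 401.3 CPM in green samples (0.57 ± 0.13, adjusted p = 0.078, edgeR), while Pdcd1 had -0.27 ± 0.16 (adjusted p = 0.460) and Havcr2 0.89 ± 0.42 (adjusted p = 0.336, both edgeR). Chemokine receptors had 0 of 8 in either direction, with Cxcr3 at 0.12 and Cxcr6 at -0.12. Costimulatory receptors had 2 of 13 higher and 0 lower (median 0.13), NK receptors 0 of 8 higher and 2 lower (median 0.0041), and egress genes 0 of 6 higher and 1 lower (median -0.12). Effector cytokines and chemokines had 2 of 11 higher and 1 lower, the called Fasl (median 0.0093). Granzymes had 1 of 8 higher and 0 lower, with Gzmb at 0.32 ± 0.28 and Gzmk at -0.86 ± 0.42. With pairs by hashtag, 4 effector cytokine and chemokine genes were higher, and 2 granzyme, 2 egress and 2 inhibitory receptor genes were lower.

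**Figure D4:**
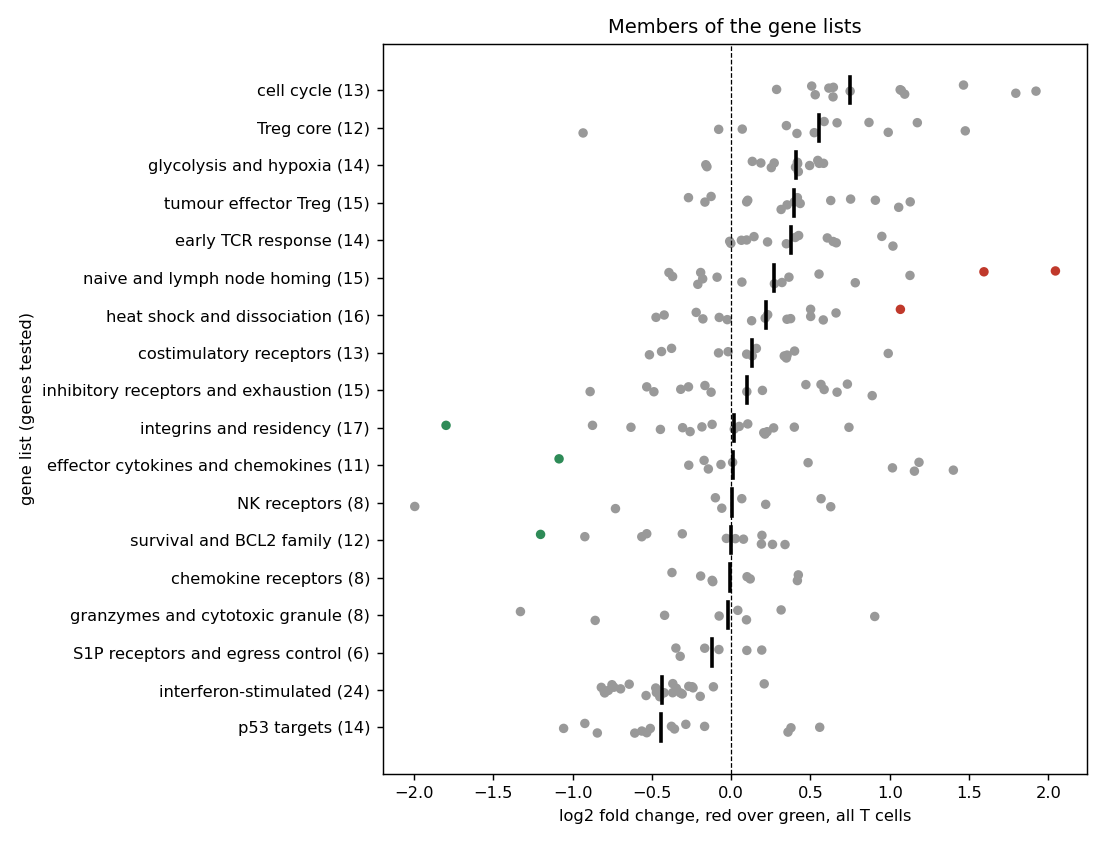
Log2 fold change, red over green, of each tested member (points) of 18 gene lists over all T cells, with the list's median as a black bar and the number tested in brackets; the dashed line is the median of all genes tested. Coloured points passed the adjusted threshold (red higher, green lower); interferon-stimulated and p53 target members lie mostly below 0, cell cycle and Treg core members mostly above.

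Within CD8-like cells, 115 red and 107 green, 3 of 5593 tested genes were higher in red (0.0536%) and 4 lower (0.0715%). At an unadjusted p under 0.05, 4.36% were higher and 5.86% lower, and with pairs by hashtag 4.74% and 5.81%. Of the clusters in this class, cluster 14 held 39 red and 19 green cells, cluster 6 held 16 red and 5 green, cluster 0 held 11 red and 25 green, and cluster 15, before it was split by lineage, 0 red and 5 green. With those pairs 4 were called higher (0.0715%) and 5 lower (0.0894%), including 6 of the 7. Bcl2 was lower in red without overlap, at 201.2, 299.3 and 359.5 CPM in red and 442.9, 775.8 and 1123 CPM in green samples (log2 fold change -1.37 ± 0.15, adjusted p = 0.0016, edgeR; 0.032 with pairs by hashtag). It was the only one of the 7 that passed without each pool in turn, since the other 6 were lost without FTY720 replicate 2, where their adjusted p included 0.097 for Itga4 and Tagap and 0.171 for Mki67 (edgeR). Abcb1a was lost without RT replicate 1 too. Itga4 was at 31.9, 50.4 and 99.6 CPM in red and 77.2, 266.7 and 527.4 CPM in green samples (-2.26 ± 0.32, adjusted p = 0.0115, edgeR), with RT+FTY720 replicate 1 green within the red range. Abcb1a (-1.61 ± 0.25) and Rundc3b (-1.71 ± 0.26) were the other genes lower (adjusted p = 0.0119 each, edgeR). Without both pools that share TCRs, 2 genes were called, Bcl2 with -1.48 (adjusted p = 0.0305, edgeR) and 1 outside the 7. Without cluster 7, Bcl2 had -1.07 (adjusted p = 0.327) and Itga4 -1.89 (adjusted p = 0.320, both edgeR). With CD8 cells classed by their own UMIs, 0 genes were called higher and 2 lower, Itga4 (-1.95, adjusted p = 0.0318) and Abcb1a (-1.50, adjusted p = 0.0403), and Bcl2 had -1.07 (adjusted p = 0.110, all edgeR).

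Tagap rose in red CD8-like cells without overlap, at 127.3, 166.2 and 227.0 CPM in red and 44.9, 63.1 and 102.8 CPM in green samples (1.35 ± 0.19, adjusted p = 0.0115, edgeR), and passed without cluster 7 as well (1.46, adjusted p = 0.0215, edgeR). Mki67 and the linker histone gene H1f5 rose too. With cells classed by their own UMIs none of these was called, with adjusted p = 0.0644 for Tagap and 0.0561 for Mki67 and H1f5 (edgeR). Mki67 was at 56.8, 143.9 and 431.5 CPM in red and 4.65, 32.2 and 60.5 CPM in green samples (2.499 ± 0.39, adjusted p = 0.0119, edgeR). H1f5 was at 14.9 to 358.5 CPM in red samples, and at 0 in 4 of 6 green samples with 50.1 and 97.6 CPM in the others (adjusted p = 0.0119, edgeR), and was not called with pairs by hashtag (adjusted p = 0.287, edgeR). Cluster 12, led by histone and cell cycle genes, held 7 red and 2 green cells, and without it the Mki67 log2 fold change was 0.69 (adjusted p = 0.654, edgeR) and H1f5 was not tested.

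Ifng in CD8-like cells was at 800.9, 1314 and 4129 CPM in red and 176.9, 375.0 and 1064 CPM in green samples, higher in 6 of 6 pairs (1.69 ± 0.41, adjusted p = 0.180, edgeR), and was called with pairs by hashtag (1.77 ± 0.25, adjusted p = 0.0237, edgeR). The chemokine genes Ccl3 and Ccl4 had 1.77 ± 0.72 and 1.21 ± 0.63 (adjusted p = 0.433 and 0.525, edgeR). Of 14 early TCR response genes, 14 had a fold change above 0, with 4 higher at an unadjusted p under 0.05, against 4.36% of all genes (median 0.46), and Nr4a1, induced by TCR signals, had 1.01 ± 0.37 (adjusted p = 0.381, edgeR). Lag3 was higher in 6 of 6 pairs (0.91 ± 0.21, adjusted p = 0.135, edgeR), and Pdcd1 had 0.18 ± 0.18. Cdkn1a was at 18.9 to 37.3 CPM in red samples, against 0 to 184.5 CPM in green ones (-1.73 ± 0.40, adjusted p = 0.154, edgeR).

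Treg-like and CD4 conventional-like cells were too few for most pools. Treg-like cells, 58 red and 29 green, reached 5 cells in both colours in 2 pools, where edgeR called 0 of 3248 genes (0%) and 148 had an unadjusted p under 0.05, 2.4% higher and 2.16% lower; DESeq2 called 1, and edgeR called 1 when cells were classed by their own UMIs. With at least 3 cells all 6 pools entered and edgeR called 0 of 2079, with 164 at an unadjusted p under 0.05, 4.14% higher and 3.75% lower. Ccl5, a chemokine of effector cells, was then at 18.4 to 398.7 CPM in red and 0 to 2101 CPM in green samples (-2.24 ± 0.49, adjusted p = 0.354, edgeR). Ccl5 was chosen after its values were seen. Foxp3 had 0.32 ± 0.29 (adjusted p = 0.777, edgeR). CD4 conventional-like cells, 25 red and 46 green, could not be fitted by cluster and replicate number with at least 5 cells. With pairs by hashtag 2 pairs entered and edgeR called 0 of 2425 genes (66 at an unadjusted p under 0.05), and classed by their own UMIs 3 pairs entered and edgeR called 0 of 3098 genes higher and 3 lower. With at least 3 cells, edgeR called 0 of 1782 genes in 5 pools, and 53 had an unadjusted p under 0.05, 1.46% higher and 1.52% lower.

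In the other wells, which had more cells, red exceeded green for 568 of 10720 genes (5.30%) and stood below it for 460 (4.29%). Of the 20 genes called in the treated day 3 wells, 19 had the same direction there, 12 passed and 0 passed in the opposite direction. Tagap (1.27 ± 0.14), Gm2a (0.93 ± 0.11) and Bcl2 (-1.28 ± 0.24) were among those that passed there, while Fasl (-0.46 ± 0.16) and Dapl1 (0.02 ± 0.25) did not pass. In the test of the difference, treated day 3 wells minus other wells, edgeR called 0 of 8921 genes (0%), with 1047 at an unadjusted p under 0.05, and DESeq2 called 46. Abcb1a differed by -0.98 ± 0.26 (adjusted p = 0.228) and Mki67 by 2.46 ± 0.61 (0.207, all edgeR).

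With pairs by hashtag in all wells, 17 genes passed that test, 14 higher. Among them, Pole, a subunit of DNA polymerase epsilon, differed by 1.95 ± 0.27 (adjusted p = 0.0132), Rfc5, of the clamp loader, by 1.51 ± 0.23 (0.0151), and the helicase subunits Mcm7 by 1.49 ± 0.25 (0.0279) and Mcm2 by 1.26 ± 0.20 (0.0246, all edgeR). Gzmc, a granzyme gene, differed by 5.83 ± 0.84 (adjusted p = 0.0132, edgeR). The 3 lower were Bltp1 (-0.67), Hivep2 (-0.72) and Gm56626 (-1.13). These genes were named after their values were seen. Cluster 12, of cycling cells, held 7 red and 2 green cells of the treated wells, and its part in these values was not tested.

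**Figure D5:**
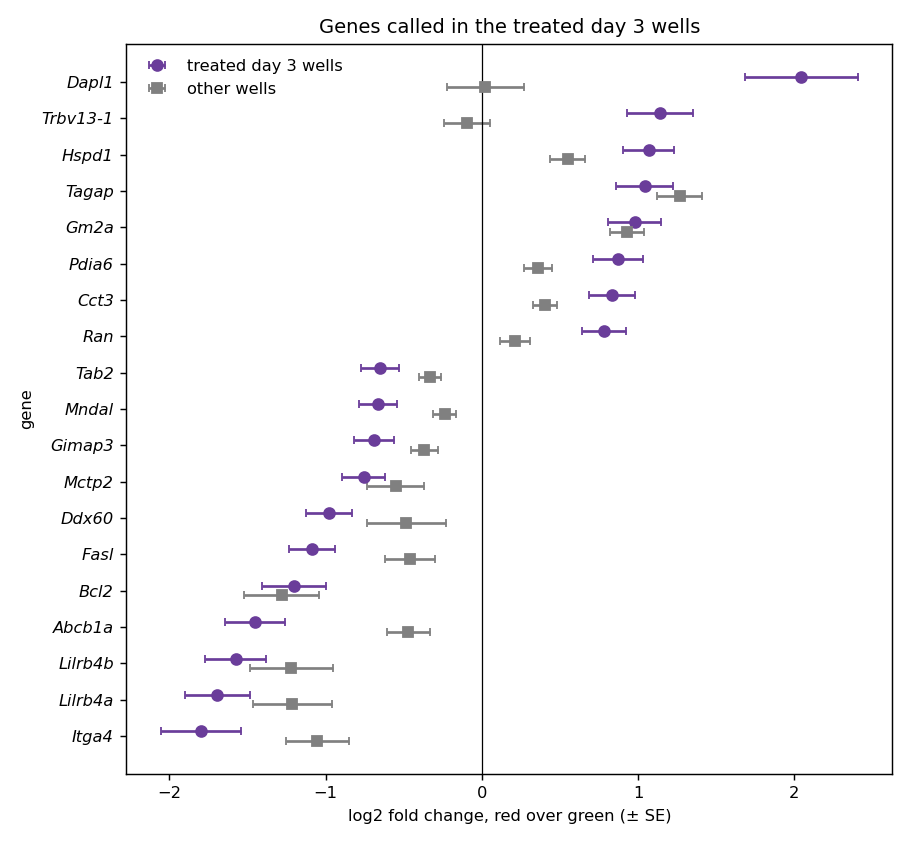
Log2 fold change, red over green, with its SE for 19 of the 20 genes called in the treated day 3 wells (circles) and the same genes in the other wells (squares). All those shown but Trbv13-1 lie on the same side of 0 in both, and Dapl1 is near 0 in the other wells.

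Across treatments, the colour difference was set between FTY720 and RT+FTY720 pools (4) and RT pools (2). One of 7275 genes passed (0.0137%), the TCR segment Trbv31, by 8.09 ± 0.76, with 220 genes at an unadjusted p under 0.05; the clone of 9 cells shown above uses it. No gene passed without RT replicate 2 (0 called, 397 at an unadjusted p under 0.05), and 0 passed with pairs by hashtag (316 at an unadjusted p under 0.05, edgeR). Itga4 had -2.20 in FTY720-treated and -1.13 in RT pools, a difference of -1.07 ± 0.44, and S1pr1 0.85 in FTY720-treated and -0.82 in RT pools, a difference of 1.66 ± 0.50, neither passing (adjusted p = 0.999 each, edgeR). Between RT+FTY720 and FTY720 pools, 2 each, 0 genes passed (0%), with 356 at an unadjusted p under 0.05, and DESeq2 called 0. Bcl2 had -1.83 in RT+FTY720 and -0.43 in FTY720 pools, a difference of -1.41 ± 0.28, and Cdkn1a -1.90 in RT+FTY720 and 0.23 in FTY720 pools, a difference of -2.13 ± 0.66, neither passing (adjusted p = 0.565 and 0.872, edgeR). With pairs by hashtag, Il10 passed higher (7.82 ± 0.77, adjusted p = 0.0031) and Bach2, a factor of quiescent T cells, lower (-2.48 ± 0.34, adjusted p = 0.0468, both edgeR). Cluster 5, a Treg-like cluster whose leading genes include Il10, held 1 to 8 cells in each sample of these pools. Its part in the Il10 value was not tested.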

How the data were processed

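Single-cell counts of UMIs were used as deposited: per the file headers, gene and hashtag counts came from Cell Ranger 8.0.1, on mm39 per the submitters' processing notes, with TCR contigs and their deposited read and UMI counts from the same tool. Further upstream filters are not stated in these sources. Genes are named as in the matrices, with no genome. The members and lists were chosen with earlier results of these data known.

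Cells of all wells were scaled to 10000 counts, reduced to 2000 variable genes and 30 components and clustered (scanpy 1.11.5, leidenalg 0.10.2, 15 neighbours, resolution 1.0). Naming a cluster took 3 or more markers that were detected in 10% or more of its cells at 1.25 times the other cells' level or above, and mixed clusters were split by each cell's Cd4, Cd8a, Cd8b1 and Foxp3 UMIs. No doublet caller was run; cells with 2 or more beta chains were left out as an alternative. Clusters with no name, such as cluster 2, are given by number.

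Raw counts were summed per pool and colour (at least 5 cells for a class) and fitted with edgeR 4.0.16 (filterByExpr, TMM, pool as a block, quasi-likelihood test, Benjamini-Hochberg at 0.05); DESeq2 1.42.0 was the alternative. CPM are TMM-scaled. Shares, depth and TCR measures were tested by exact sign flips of 6 pairs. The fits were tested on simulated data without differences between pools, so the test does not cover the block. They called 65.2% to 76.3% of genes changed by a log2 fold of 1, and 100% of those changed by 2. Per run, 9 to 14 unchanged genes were called. Each pool joins 4 mice, so the p-values describe variation among pools and not among single mice. Named genes were the 10 largest called per direction with that direction in all pools but at most 1 and no TCR or immunoglobulin segment, list members that passed and a panel of 30; others are said to be chosen after their values were seen. Some genes that these rules name are not reported here, though counts include them.

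Replicate numbers pair red and green samples in the labels. Deviations of same-numbered samples from their group means correlated at 0.017 in FTY720, -0.113 in RT and -0.096 in RT+FTY720. No such correlation is given for pairs by hashtag. Pairing by hashtag was added after the data were seen, among them the TCR sequences, which were shared more often by hashtag than by replicate number.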

Additional observations from a re-analysis of the deposited data

Results flagged for a closer look

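In groups of 6 samples, a sample was singled out when its gap to the nearest passed Dixon's 95% critical value relative to the group's range. This occurred in 20 of 168 groups. Each group joins 3 treatments, and the groups share samples and cells. The 1 in 20 that the critical value allows is therefore not a chance rate for them. RT+FTY720 replicate 2 red stood above the other red samples for Ccl3 (4375.5 CPM), Ccl4 (12359 CPM, and 17747 CPM in CD8-like cells), Ifng (2880.4 CPM, and 4128.6 CPM in CD8-like cells), Nr4a1 (497.0 CPM, and 558.5 CPM in CD8-like cells) and Fasl (195.7 CPM). RT+FTY720 replicate 1 green, which carries the same hashtag sequence, C0306, stood above the other green samples for Ccl3 (1127.9 CPM, and 1640.6 CPM in CD8-like cells), Ccl4 (3113.8 CPM), Ifng (821.1 CPM) and Tnf (329.8 CPM, and 255.0 CPM in CD8-like cells). RT replicate 1 red was high for Ccr7 (356.5 CPM, and 255.3 CPM in CD8-like cells), and RT replicate 2 red for Abcb1a (112.8 CPM). RT replicate 2 was high for naive CD4-like cells in red (6.25%) and green (4.76%), and RT+FTY720 replicate 1 red for the share of cell pairs with the same beta sequence (8.77%).

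The colour difference of Trbv31 differed between FTY720-treated and RT pools by 8.09 on the log2 scale. In the TCR data, 6 alpha and beta pairs were shared by red and green samples of 1 hashtag sequence and 3 by samples of different conditions. No cause of these values was tested.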

How the results depend on the processing

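Called genes over all T cells (20) numbered 67 with DESeq2, 10 with RLE factors, 410 with no filter on low counts, 0 with no replicate block, 11 in replicate 2 pools alone, 0 with the label colours, 0 without cluster 7 and 0 without both pools whose red cells share TCRs across conditions, and 3 to 19 without one pool at a time. In CD8-like cells (7) they numbered 24 with DESeq2, 197 with no filter, 4 with no replicate block, 0 in replicate 1 and 27 in replicate 2 pools alone, 0 with the label colours, 2 by lineage UMIs, both lower, 13 with at least 10 cells, 4 without cluster 7, 2 without both pools that share TCRs, and 1 to 13 without one pool. In Treg-like cells (0) they were 1 with DESeq2, 31 with no filter and 1 by lineage UMIs. Leaving out a pool left a Treg-like fit only where that pool was not in it, so the 0 calls there repeat the main fit. The cause of the changed counts was not tested, beyond the number of samples or genes each setting leaves.

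With the replicate block by hashtag sequence, the crossed pairing, 50 genes were called over all T cells, 9 in CD8-like cells, and 17, 0 and 2 in the 3 tests of a difference (treated minus other wells, FTY720-treated minus RT, RT+FTY720 minus FTY720), against 0, 1 and 0 by replicate number. Those tests gave 46 and 2 calls for the first and second with DESeq2, 346, 43 and 85 with no filter, 0 for the second with the label colours, and 0, 0 to 2 and 0 to 2 without one pool. The red minus green differences of 4464 median UMIs and 492 median genes per cell passed by hashtag (exact permutation p = 0.03125).

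Label colours in replicate 2 turned the sign of Ddx60 (0.018), Gm2a (-0.030), Itga4 (0.48), Mctp2 (0.23), Pdia6 (-0.0074) and Tagap (-0.37) over all T cells, and of Bcl2 (0.042), H1f5 (-1.20), Itga4 (0.58), Mki67 (-0.48) and Tagap (-0.30) in CD8-like cells, none called. They also turned the share differences of CD8-like (2.57 points), Treg-like (-4.88), CD4 conventional-like (0.358) and naive CD4-like cells (-0.546). Lineage UMIs turned that of CD8-like cells (1.81). Those of Treg-like (9.42) and CD4 conventional-like cells (-9.46) passed with lineage UMIs, where the adjustment ran over these classes alone and not over 6 classes. Without one pool at a time, these differences ran from -9.13 to -1.32, 6.09 to 11.4 and -14.1 to -10.1 points. Samples of 17 to 64 cells limit low genes and the smaller classes; CD4 conventional-like cells had too few pools at 5 cells, apart from the fits by lineage UMIs (3 called lower) and by hashtag pairs (0), and 2 of 6 omissions, each replicate alone, at least 10 cells and the hashtag pairs left Treg-like cells with no fit.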
